A study of Mus musculus with 10 samples.

Results

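The genes described here are 10 targets of the tumour suppressor p53 that act in cell cycle arrest and in its feedback: Cdkn1a, Sfn, Mdm2, Ccng1, Gadd45a, Btg2, Zmat3, Plk2, Sesn1 and Sesn2. They were set against the binding sites of p63, a relative of p53, in mouse keratinocytes. A p63 peak, meaning a stretch of genome enriched by chromatin immunoprecipitation and sequencing (ChIP-seq), was assigned to a gene if any base of it lay inside the gene or within 50 kb of either end. This rule gave 31 peaks, or 0.367% of the 8451 peaks in the list, and 9 of the 10 genes had at least 1. No peak was assigned to more than 1 of these genes.

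The libraries came from cultured keratinocytes titled MK1 and MK2, taken here as replicates 1 and 2. The titles do not say whether these are separate lines. Each had 1 library for each of p63 (precipitated with antibody 4A4), H3K4me1, H3K4me3, H3K27ac and input chromatin, 10 in all. The labels name no genetic change, treatment or stress for MK1 or MK2. The 1 list analysed was made from the 2 p63 libraries together and gives only positions on mm10. It has no peak height and no value per replicate, so depth is unknown, MK1 cannot be set beside MK2, and no test between samples could be made. A gene without a peak may be unbound or bound below what the reads could show. Its site may also have been dropped by the filter for peaks ranked alike in both libraries. Of the keratinocyte genes, Krt5 had 4 peaks inside or within 50 kb, Krt14 had 2 and Trp63, the gene of p63, had 4. Of all protein-coding genes, 4.78% had 4 or more and 19.7% had 2 or more. Of Krt14's 2 peaks, 1 had Krt14 as its nearest gene. Expression was not measured.

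p53 and p63 bind closely related DNA elements, each made of 2 copies of a short palindromic word placed in succession. After DNA damage p53 activates genes that stop the cell cycle, such as the kinase inhibitor p21, and genes that switch p53 off again, such as Mdm2. In the epidermis p63 sustains the proliferating basal layer, and it is known to bind several p53 target genes there, among them those of p21 and 14-3-3 sigma.

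Of the 10 genes, 2 had a p63 peak over a promoter window, taken as the 250 bases before to the 50 after a transcription start listed by RefSeq for GRCm38.p6, the assembly of mm10. These were Cdkn1a and Ccng1. Of the 11 windows of these genes 2 were overlapped, beside 1.08% of all promoter windows. Each window is printed 5′ to 3′ with its best match to the p53 family response element in capitals, since in both windows that match lay inside the peak. The Cdkn1a window lay at chr17:29090729-29091028 on the plus strand and the Ccng1 window at chr11:40755237-40755536 on the minus strand.
Cdkn1a: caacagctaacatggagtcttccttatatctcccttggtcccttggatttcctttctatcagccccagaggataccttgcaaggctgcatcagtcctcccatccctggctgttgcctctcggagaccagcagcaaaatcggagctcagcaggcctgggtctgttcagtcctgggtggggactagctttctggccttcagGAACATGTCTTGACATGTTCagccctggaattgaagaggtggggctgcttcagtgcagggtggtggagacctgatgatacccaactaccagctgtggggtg
Ccng1: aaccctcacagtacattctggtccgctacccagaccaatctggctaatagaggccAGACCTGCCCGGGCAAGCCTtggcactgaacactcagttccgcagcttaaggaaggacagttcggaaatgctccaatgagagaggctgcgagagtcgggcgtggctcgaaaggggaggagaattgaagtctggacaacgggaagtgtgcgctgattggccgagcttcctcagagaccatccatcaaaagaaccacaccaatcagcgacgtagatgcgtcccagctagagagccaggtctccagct

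The element has 20 bases, as 2 decamers of 10 bases with no spacer, and reads the same on either strand. In each of these windows the match fitted the element at 19 of 20 bases. In the 20-base sites below, capitals mark the bases that fit and the lower-case letter the base that does not.
Cdkn1a site: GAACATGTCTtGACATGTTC
Ccng1 site: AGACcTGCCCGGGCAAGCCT
The Cdkn1a site, at 29090928 to 29090947, lay 32 to 51 bases before the listed start, and its centre was 22.5 bases from the midpoint of the peak. The Ccng1 site, at 40755462 to 40755481, lay 176 to 195 bases before the start, and its centre was 24 bases from the midpoint of the peak. Both sites lay wholly inside their peaks. The Cdkn1a peak covered 278 of the window's 300 bases, including the start itself. The Ccng1 peak covered 186 bases and ended before the start.

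Such matches were rare. A site with at most 1 mismatch was found in 29 of 32807 promoter windows (0.0884%). It was found in 10 of the 353 windows that a peak overlapped (2.83%), each time inside the peak, and in 19 of the 32454 others (0.0585%). Cdkn1a and Ccng1 were 2 of those 10. With at most 2 mismatches the shares were 11.6% of windows with a peak, 0.678% of windows without and 0.796% of all. The 9 other promoter windows of these genes, none of them under a peak, had 3 to 6 mismatches at their best match. For Cdkn1a's other listed start, 2.79 kb downstream, the best match had 5. Zmat3 has no window in the table used. A match in the letters is a description of the window, not a measured binding site. Peaks away from promoter windows could not be searched, as no genome was used.

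**Figure D1:**
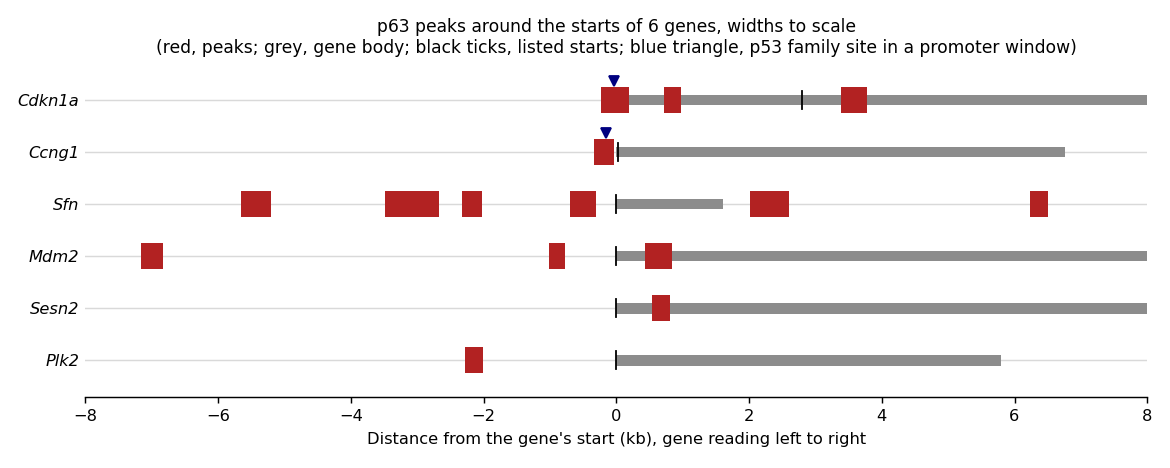
Map of p63 peaks (red, widths to scale) within 8 kb of the start of 6 genes, with distance from the gene's start in kb on the x axis and each gene read left to right. Blue triangles mark the promoter sites with at most 1 mismatch, and those of Cdkn1a and Ccng1 both stand over a peak; Sfn has peaks on both sides of its body.

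Most of these genes had several peaks. At least 1 peak lay inside or within 50 kb of 9 of the 10 genes (90.0%), beside 40.8% of 21779 protein-coding genes. At least 2 peaks were found at 8 of the 10, beside 19.7%. At least 3 peaks were found at 7 of the 10, beside 9.73% of protein-coding genes, and at least 4 at 5 of the 10, beside 4.78%. The median was 3.5 peaks a gene, with a range of 0 to 6, and 0 at the other protein-coding genes. The median length of the 10 genes was 8.25 kb, and that of the other protein-coding genes 17.22 kb. Of all annotated genes, coding or not, 33.3% had a peak within 50 kb. Within 25 kb and within 10 kb the same 9 genes still had a peak, beside 29.8% and 21.4% of protein-coding genes. Within 100 kb each of the 10 had 1, beside 55.3%. Each of the 10 was also the nearest protein-coding gene of at least 1 peak at some distance, as were 21.7% of such genes. Since the genes were chosen with earlier results of this list known, these shares describe them and carry no test.

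**Figure D2:**
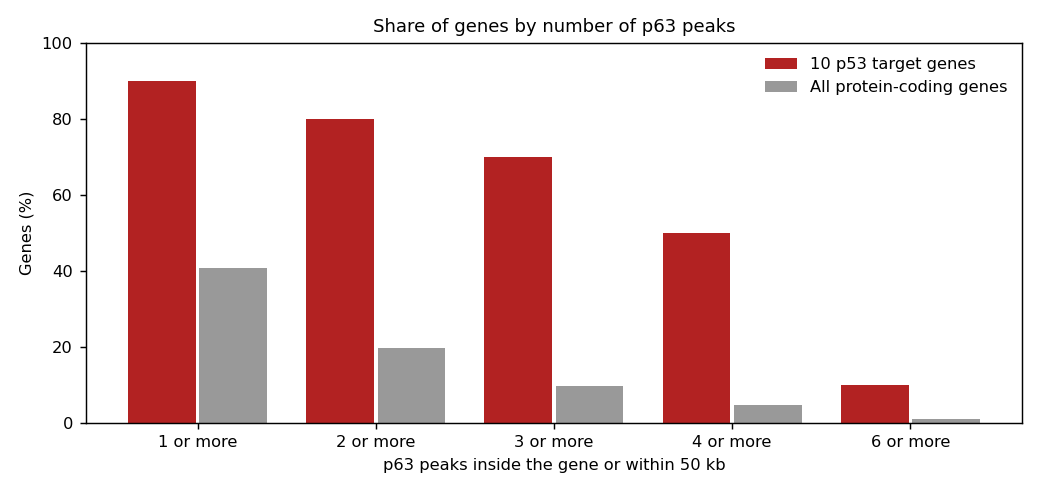
Share of genes (%) with at least 1, 2, 3, 4 or 6 p63 peaks inside the gene or within 50 kb, for the 10 p53 target genes (red) and for all 21779 protein-coding genes (grey). The red bar is the higher at each number of peaks, at 70.0% against 9.73% for 3 or more.

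A feature several of the genes shared was a peak next to a transcription start. Of the 9 genes with a listed start, 5 had a peak midpoint within 1 kb of one (55.6%): Cdkn1a, Sfn, Mdm2, Ccng1 and Sesn2. Of 17492 protein-coding genes with a listed start, 2.54% did. Within 2.5 kb the count was 6 of 9, with Plk2 added, beside 4.57%. Within 10 kb it was 7 of 9, with Sesn1 added through its second listed start, beside 11.3%. Counting any gene's start, 10 of the 31 peaks (32.3%) lay within 1 kb of a listed start, beside 7.56% of the peaks on chromosomes with listed starts, and 18 (58.1%) within 5 kb, beside 22.1%. The 31 were taken for lying near genes, whereas those shares include peaks far from any gene. The median distance to a listed start was 3.08 kb for the 31 and 18.72 kb for the rest of the list. For the 6913 other peaks that also lay within 50 kb of a protein-coding gene it was 16.20 kb. In all, 8 peaks lay within 1 kb of a start of these genes, 4 before the start and 4 after it, and the 4 after it were at 0.64 to 0.84 kb.

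By side, 15 of the 28 peaks at the 9 genes with a listed strand were upstream of the gene (53.6%), 6 were inside (21.4%) and 7 were downstream (25%). Over the 13580 gene and peak pairs within 50 kb of the 17492 protein-coding genes with a listed strand, 37.2% were upstream, 26.1% inside and 36.7% downstream. Upstream peaks occurred at 8 of the 9 genes, beside 20.4% of those 17492. Without Sfn, which had 4 of the 15 upstream peaks, the shares were 50.0% upstream, 27.3% inside and 22.7% downstream. For 18 of the 31 peaks the gene was also the nearest protein-coding gene, and 13 peaks had a nearer neighbour.

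**Figure D3:**
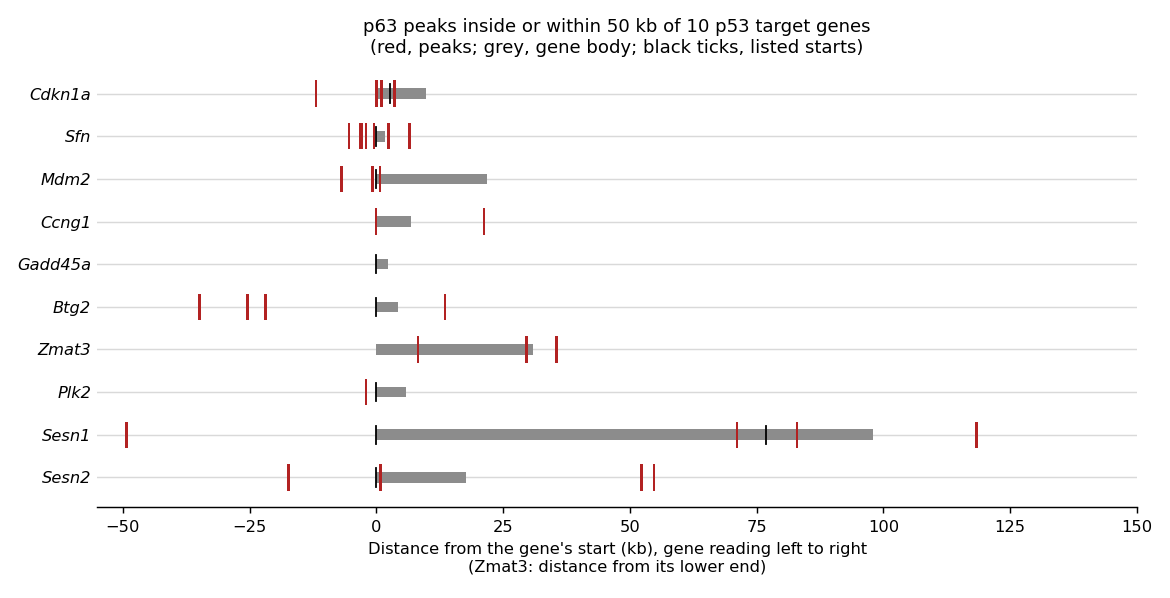
Position of the 31 peaks (red, drawn at least 0.5 kb wide so that they can be seen) along the 10 genes (grey bodies), in kb from the start of each gene, or from the lower end for Zmat3. Peaks crowd around the starts of Cdkn1a, Sfn and Mdm2, lie farther out at Btg2 and Sesn1, and are absent at Gadd45a.

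Among the cell cycle inhibitors, Cdkn1a, which encodes the cyclin-dependent kinase inhibitor p21, had 4 peaks, and each had Cdkn1a as its nearest gene. The gene spans 29090979 to 29100722 on chromosome 17, on the plus strand, and has 2 listed starts. A peak of 419 bp at 29090751 to 29091169 spanned the first start, with its midpoint 0.02 kb before it and 2.81 kb before the second. A peak of 260 bp at 29091693 to 29091952 followed, 0.84 kb inside the gene. The third peak inside this stretch, 398 bp at 29094361 to 29094758, lay 0.79 kb after the second start. The fourth, 393 bp at 29078847 to 29079239, stood apart at 11.94 kb upstream. Thus each listed start had a peak within 1 kb. The 3 clustered peaks fitted in 4.01 kb, and 46 runs of 3 peaks in the whole list were as short or shorter, this one included. The first pair was separated by 523 bp and the next by 2408 bp.

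Sfn, which encodes 14-3-3 sigma, a protein that holds mitotic kinase complexes in the cytoplasm, had 6 peaks, the most of the 10 genes. Of all protein-coding genes, 1.03% had as many. Sfn is only 1.613 kb long, at 133600556 to 133602168 on chromosome 4, on the minus strand, and no peak had its midpoint inside it. Its peaks lay on both sides within 12.16 kb. The promoter-proximal peak, 391 bp at 133602476 to 133602866, was 0.50 kb upstream of the start, and 57 bases separated it from the promoter window. Upstream of it followed peaks of 310 bp at 2.17 kb, 827 bp at 3.08 kb and 463 bp at 5.43 kb. These 3 had Zdhhc18, which encodes a palmitoyltransferase, as the nearest gene, and the last 2 had their midpoints inside it. On the other side a peak of 582 bp at 133599571 to 133600152 lay 0.69 kb beyond the end of Sfn. A peak of 259 bp lay 4.76 kb beyond that end and had Gpn2 as its nearest gene. In the whole list 2 runs of 6 peaks, this one included, were as short. The 827 bp peak, at 133604833 to 133605659, was the widest at any of the 10 genes, and 99.2% of the list was narrower.

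Ccng1, which encodes cyclin G1, a partner of the phosphatase PP2A in the control of Mdm2, had 2 peaks. The gene spans 40748552 to 40755309 on chromosome 11, on the minus strand. The 290 bp peak at 40755351 to 40755640, which holds the printed site, had its midpoint 0.21 kb before the listed start. The other, 324 bp at 40734028 to 40734351, lay 14.36 kb beyond the gene's end and inside Nudcd2. The next peak of the list beyond the 50 kb limit was 1037.17 kb from the gene.

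Plk2, which encodes a polo-like kinase of centriole duplication and the stress response, had 1 peak. This 273 bp peak at 110392759 to 110393031 on chromosome 13 lay 2.15 kb upstream of the start of Plk2, which spans 110395044 to 110400844 on the plus strand. It was isolated, with the nearest other peak 99.31 kb away, and 76.9% of the list had a closer neighbour. Having 1 peak or more was common, at 40.8% of protein-coding genes. Plk2 was also the nearest gene of 3 peaks farther downstream, at 91.36, 293.74 and 299.49 kb.

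Btg2, which encodes an antiproliferative adaptor of the mRNA deadenylation machinery, had 4 peaks but none within 10 kb of its start. The gene spans 134074865 to 134079155 on chromosome 1, on the minus strand. Its closest peak, 224 bp at 134065635 to 134065858, lay 9.12 kb beyond its end. The other 3 were upstream at 21.96, 25.54 and 35.08 kb, with widths of 314, 241 and 204 bp, and the nearest gene of each was Chit1, which encodes a chitinase. Thus 1 of the 4 peaks had Btg2 as its nearest gene, and 3 of the 4 were narrower than the median of the list.

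Gadd45a, which encodes a stress sensor that binds the replication clamp PCNA, had 0 peaks, and was the only one of the 10 without any. It spans 67035096 to 67037407 on chromosome 6, on the minus strand. The nearest peak, 409 bp at 67134911 to 67135319, lay 97.71 kb from the gene on its upstream side. With 2 more, of 209 and 241 bp at 110.50 and 113.38 kb, it formed a group of 3 whose nearest protein-coding gene was still Gadd45a. In Gadd45a the known p53 element lies in an intron, and no peak was listed there.

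Among the feedback genes, Mdm2, which encodes the ubiquitin ligase that degrades p53, had 3 peaks at its start end, and each had Mdm2 as its nearest gene. The gene spans 117688875 to 117710758 on chromosome 10, on the minus strand. A peak of 399 bp at 117709921 to 117710319 lay 0.64 kb inside the gene from its start, and one of 248 bp at 117711533 to 117711780 lay 0.90 kb before the start. These 2 flanked the promoter window, which had no peak, with 389 bases between the window and the inner one. The third, 331 bp at 117717593 to 117717923, was 7 kb upstream. Mdm2 is known for a p53-dependent promoter in its first intron, but the annotation used has no exons, so the inner peak could not be assigned to an intron. The 3 peaks fitted in 8 kb, and 148 runs of 3 in the list, this one included, were as short.

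Zmat3, which encodes a zinc finger RNA-binding protein, had 3 peaks, and each had Zmat3 as its nearest gene. Its strand was not given, so distances are from the lower and upper ends of the gene at 32334792 to 32365665 on chromosome 3. The widest, 537 bp at 32364073 to 32364609, lay inside the gene, 1.32 kb from its upper end, and 92.1% of the list was narrower. A peak of 234 bp lay 4.47 kb above that end. The third, 173 bp at 32342739 to 32342911, was 8.03 kb inside from the lower end and was the narrowest at any of the 10 genes, with 1.36% of the list narrower.

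The sestrins, which restrain mTORC1 signalling when cells are stressed, had 4 peaks each in different arrangements. Sesn2 spans 132492804 to 132510456 on chromosome 4, on the minus strand. A peak of 276 bp at 132509643 to 132509918 lay 0.68 kb inside it from the start. The other 3 peaks of Sesn2 were nearer to other genes. One of 247 bp lay 17.49 kb upstream, near Atpif1, and a pair of 384 and 178 bp lay 37.02 and 34.50 kb beyond the gene's end, near Med18. Sesn1 spans 97.863 kb, from 41810574 to 41908436 on chromosome 10, on the plus strand, and its 2 listed starts are 76.87 kb apart. The peak closest to the first start was 49.37 kb upstream of it. Both inner peaks stood around the second: 291 bp at 41881483 to 41881773, 5.81 kb before it, and 455 bp at 41893306 to 41893760, 6.09 kb after it. A peak of 552 bp lay 20.55 kb beyond the end, inside Armc2. That upstream peak, 211 bp wide and inside Cep57l1, was the peak closest to the 50 kb limit from within. The closest peak from without was 59.56 kb from Cdkn1a, a 397 bp peak whose nearest gene was Cpne5.

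In width the median peak at these genes was close to that of the rest of the list. The 31 peaks had a median width of 310 bp and spanned 173 to 827 bp, with quartiles of 247.5 and 398.5 bp. The other 8420 peaks had a median of 305 bp and quartiles of 242 and 392 bp. Of the 31, 16 were wider than the median of the whole list (51.6%), beside 49.8% of all peaks, and 4 were 500 bp wide or more (12.9%), beside 10.8%. Those 4 were at Sfn, with 2, and at Zmat3 and Sesn1. Peaks within 5 kb of an own start had a median of 350.5 bp (n = 12) and those farther away one of 302.5 bp (n = 16). Split by any gene's listed start instead, peaks within 5 kb had a median of 300 bp (n = 18) and those farther away one of 314 bp (n = 13), beside 311 and 303 bp in the rest of the list. The printed Cdkn1a promoter peak was wider than 79.9% of the list, while the Ccng1 promoter peak was wider than 44.3%. Width is no measure of strength, and the list has none.

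**Figure D4:**
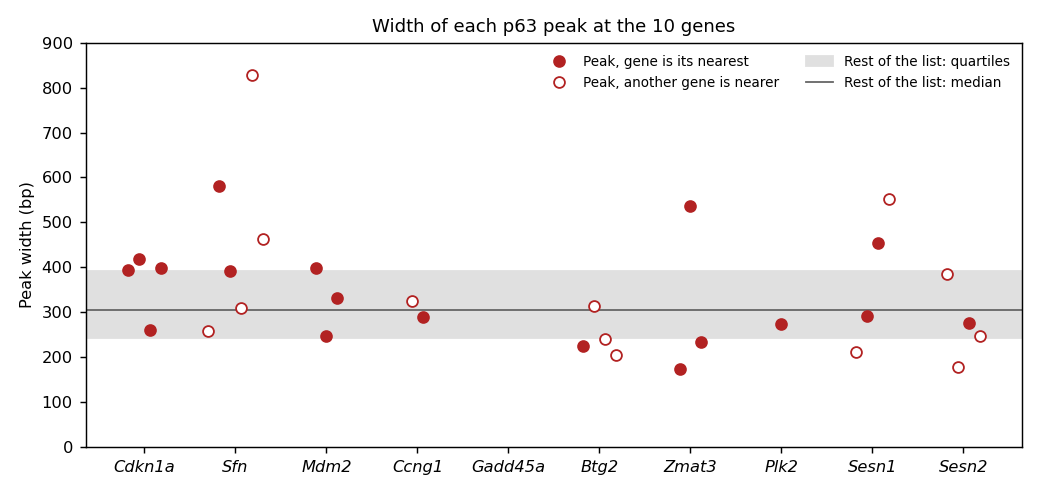
Width in bp of each p63 peak at the 10 genes, as filled points where the gene is the peak's nearest protein-coding gene and open points where another gene is nearer. The grey band and line give the quartiles and median of the rest of the list, and the points scatter around them, with the 827 bp peak at Sfn the highest.

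In spacing the median peak at these genes had a closer neighbour than that of the list, with a wide range between genes; this was not tested. From midpoint to midpoint, the nearest other peak was a median of 5.80 kb away for the 31 peaks and 28.59 kb for the rest of the list. For the 7158 other peaks that also lay within 50 kb of a protein-coding gene it was 26.47 kb. Without the 6 peaks of Sfn the median was 9.53 kb. Another peak lay within 10 kb of 19 of the 31 (61.3%), or 52.0% of the 25 without Sfn, beside 29.1% of all peaks. Another lay within 1 kb of 4 of the 31 (12.9%), or 8.0% without Sfn, beside 4.61% of all. Another lay within 2 kb of 7 of the 31 (22.6%), or 16.0% without Sfn, beside 9.66% of all. The closest pairs were 0.86 kb apart at Cdkn1a and 0.90 kb at Sfn, where 335 bp separated the facing edges. At Cdkn1a, Sfn and Mdm2 the spacing of each peak was at most 11.92, 4.06 and 6.10 kb, whereas the single peak of Plk2 was at 99.31 kb and the outermost of Sesn1 at 120.43 kb. Peaks at a gene cannot be counted as independent binding events, since neighbours share their locus.

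**Figure D5:**
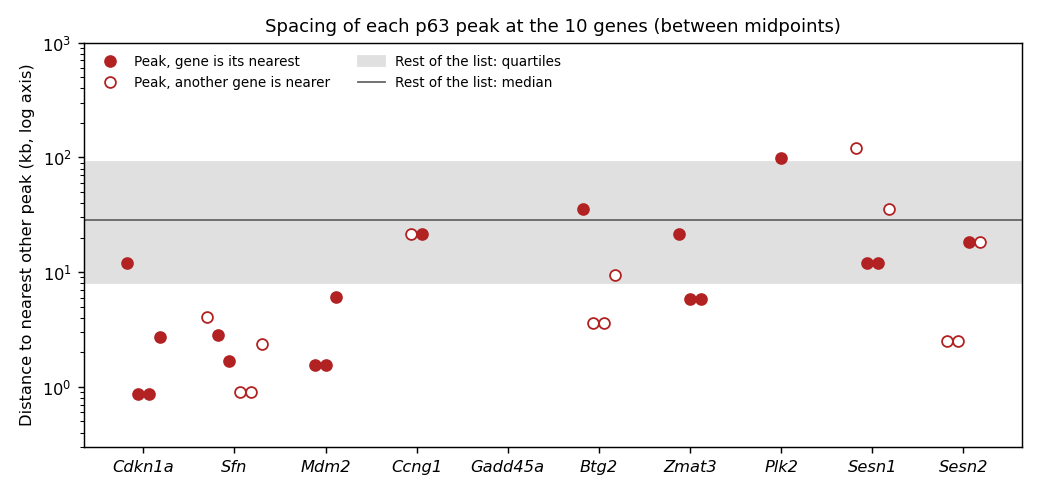
Distance from each p63 peak at the 10 genes to the nearest other peak of the list, between midpoints in kb on a log axis, as filled points where the gene is the peak's nearest protein-coding gene and open points where another gene is nearer. The peaks of Cdkn1a, Sfn and Mdm2 lie low, mostly under the grey band that marks the quartiles of the rest of the list, while Plk2 and the outermost peak of Sesn1 lie above it.

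Relatives of these genes from the same families were counted in the same way. Of 18 such paralogs, 11 had a peak inside or within 50 kb (61.1%), beside 40.8% of protein-coding genes, with a median of 1 peak. A peak within 1 kb of a listed start was found at 5 of the 9 genes described here, and at 0 of the 14 paralogs with a listed start. Over all protein-coding genes with a listed start the share was 2.54%, so 0 of 14 lay near it. Gadd45b and Ywhaz had 4 peaks each, the most among the paralogs, followed by Mdm4, Ywhag and Ywhaq with 2 each. Ywhag was the nearest gene of 0 of its 2 peaks, and Ywhaq of 1 of its 2. Gadd45b, the stress-induced sister of Gadd45a, had its closest peak 6.40 kb from its start, and 1 of its 4 peaks had it as the nearest gene. Mdm4, the partner of Mdm2 in restraining p53, had both its peaks inside the gene, the closer 5.10 kb from a start. Cdkn1b, the sister gene of Cdkn1a, and Ccng2, that of Ccng1, had 0 peaks each.

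Other genes of the p53 network also had peaks at their starts. Of 24 listed, 23 were matched, and 18 of them had a peak within 50 kb (78.3%), with a median of 1 peak. Of all protein-coding genes, 40.8% had one. Of the 16 with a listed start, 9 had a peak within 1 kb of it (56.2%), at 0.04 to 0.62 kb. The share over all protein-coding genes with a listed start was 2.54%. Perp, a membrane protein of desmosomes, had 6 peaks, Bax, a pore-forming death protein, had 5, and Ddit4, an inhibitor of mTORC1, and Ppm1d, a phosphatase that ends the p53 response, had 4 each. The gene itself was the nearest gene of 6 peaks at Perp, 2 at Bax, 2 at Ddit4 and 3 at Ppm1d. The peak closest to the start of Ppm1d lay 0.07 kb from it, and the closest at Bax 0.34 kb. Trp53, the gene of p53 itself, had 0 peaks within 50 kb. The difference between these lists was not tested.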

How the data were processed

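Peak positions were taken from the authors' deposited list, whose start and end columns hold no other unit than base positions. Per the labels, IDR, a filter for peaks ranked alike in replicates, was run on both p63 libraries; reads were 50 bp single-end. Per the submitters' processing notes, Bowtie 1.1.1 and SAMtools 1.1 were used with mm10. Which caller made the peaks, and at what threshold, is not given in the sources used here. Single-end fragments have inferred ends, which limits how exactly an edge or midpoint marks a site. Starts were made 1-based. The other libraries, of histone marks and input, were not used here.

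Gene extents came from RefSeq (GRCm38.p6, the coordinates of mm10), without 340 rows that carry scaffold positions, leaving 21779 protein-coding genes. Starts and strands came from RefSeq promoter windows, which covered 17492 of them and 9 of the 10 genes. The nearest gene was one holding the peak's midpoint, or else the one with the nearest end. Distances are from midpoints, except that the 50 kb limit counts any base. The members, gene lists and measures were chosen with earlier results of these data known, and the 1 to 10 kb ranges around starts after the positions were seen. All 10 members are named, and of each other list the 4 genes with most peaks, ties alphabetical. Ywhaq, Trp53, Cdkn1b and Ccng2 were added after their counts were seen. The counting and site search were tested on simulated data. Python 3.11.15, pandas 2.3.3 and NumPy 2.4.6 were used. Other windows, midpoints, wider peaks and nearest genes were tried as alternatives.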

Additional observations from a re-analysis of the deposited data

How the results depend on the processing

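The list gives 1 set of positions from both replicates, so neither could be left out. No paired analysis was possible because the list holds no value per replicate. Of 25 alternatives, 23 stayed within 1.5 times the reported count or within the 95% binomial interval of the reported share or median. The other 2 concerned the number of peaks, reported as 31: it was 16 with only peaks at or above the median width of the list, and 18 with only peaks whose nearest protein-coding gene was the gene in question. The number of genes with a peak was 8 to 10 under every alternative tried, and Gadd45a joined the others only within 100 kb. Taking all annotated genes as background was counted among the 23, although it could not change this number from 9. The intervals of shares and medians treat the 31 peaks as independent, although neighbours share their locus. Without the peaks of Sfn, an alternative chosen after seeing the data, the median spacing was 9.53 kb instead of 5.80 kb. Unknown depth, and the filter for peaks ranked alike in both libraries, limit every count of 0.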
